A study of Homo sapiens with 10 samples.

Results

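The study lowered the HMG-box transcription factor SOX4 in the established prostate cancer line DU145, which is human, and asked whether this holds back a neuroendocrine change of state. Described here are the 9 genes for serine synthesis and its link to folate: PHGDH, PSAT1, PSPH, SHMT1, SHMT2, MTHFD1, MTHFD1L, MTHFD2 and GCSH. They were chosen by name for the enzymes they encode, and each had a row of its own among the 13527 features of the RNA-seq table. The control group, shCon, had 3 libraries of cells with a scrambled hairpin, and the other group, shSOX4, had 3 libraries of cells with SOX4 knocked down. Neither group received a further treatment, and both grew in DMEM with fetal bovine serum. Whether a group was a clone or a pool of cells, the hairpins' number and sequence are not stated by the labels. The labels do not tell whether libraries of one group are separate cultures, and p-values here reflect their spread, which may be technical. The series also has 4 chromatin accessibility libraries of cells with SOX4 overexpressed or an empty vector, not analysed here.

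Serine is made from 3-phosphoglycerate, an intermediate of glycolysis. PHGDH oxidises it, PSAT1 transfers an amino group from glutamate, and PSPH removes the phosphate. A serine hydroxymethyltransferase, SHMT1 in the cytosol or SHMT2 in mitochondria, then splits serine into glycine and a one-carbon unit carried by tetrahydrofolate. In mitochondria MTHFD2 oxidises that unit and MTHFD1L releases it as formate, while the cytosolic MTHFD1 catalyses these steps in a single protein. GCSH is the lipoyl-carrying H protein of the glycine cleavage system, which also yields a one-carbon unit. Tumour cells use these units for purines, thymidylate and methylation, and ATF4, through which the integrated stress response acts on transcription, is a known activator of PHGDH, PSAT1, SHMT2 and MTHFD2.

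The 3 genes of serine synthesis and SHMT2 fell in shSOX4 to between 48.5 and 59.3% of control, and no test was passed by MTHFD1, MTHFD1L and MTHFD2, which handle the one-carbon unit after that, nor by SHMT1 and GCSH. So 4 of 9 were called lower and 0 higher (edgeR's quasi-likelihood test, adjusted p under 0.05), where 32.8% of all features were called, 15.8% lower and 17% higher. Of features with at least 40 CPM, a minimum chosen after seeing the members' range, 17.8% were called lower. Unadjusted, 5 of the 9 had a p under 0.05, the additional one being SHMT1, and DESeq2 called the same number lower and higher. The median log2 fold change was -0.37 over the 9 genes and -0.01 over all features. The groups did not overlap for 6 of the 9 genes, all 6 with shSOX4 below shCon, against 47% of all features in either direction and 23.9% in this one. The members were chosen with earlier results of these data known, so the counts describe them and are no evidence that the pathway stands apart.

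Libraries held 31189910 to 43361609 counts. SOX4 itself had 8.48 to 12.9 CPM (counts scaled to library size, with TMM factors) in shCon and 4.55 to 6.44 in shSOX4, so the targeted gene followed the labels (adjusted p = 0.0111, edgeR). Its call was lost without shCon 1 (adjusted p = 0.0598, edgeR). On the second principal component shCon 3 and shSOX4 1 lay apart from the other 4 libraries, with scores of -29.3 and -35.7 against 7.58 to 21.1. Of 8 epithelial markers all had a row and KRT8, KRT18, KRT19 and KRT7 were abundant, with a summed level of 5558 to 8256 CPM in shCon and 9702 to 10969 in shSOX4. Of the 8, KRT8 and KRT18 were called higher in shSOX4 and 3 were called lower, EPCAM (mean 11.2 to 6.28 CPM), CDH1 (9.42 to 3.88) and CDH3 (56.6 to 30). The list and its sum also hold VIM, a mesenchymal gene that averaged 985 CPM in shCon and 855 in shSOX4. Of the prostate lineage list 3 of 7 genes had a row (8.83 to 15.1 against 11.9 to 16.4 CPM). Markers of other cell types with a row were 2 of 7 for leukocytes (97.4 to 116 CPM in shCon and 46.3 to 56.5 in shSOX4, nearly all CD68), 1 of 5 for endothelium (0.525 to 0.942 against 4.70 to 6.62) and 3 of 7 for fibroblasts (1.69 to 2.48 against 9.55 to 16). PTPRC, PECAM1 and COL1A2 had no row. These lists and the genes below moved in the same comparison, and their part in the results was not tested.

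Promoter sequences are shown for PHGDH and PSAT1, which fell, and for MTHFD2 and MTHFD1L, which were not called, because these are neighbouring steps of one route. Each is the 250 bases before the gene's start in RefSeq (GRCh38.p14), 5′ to 3′ on the gene's strand. Capitals mark CCAAT, the box bound by NF-Y, and TGATGNAA, a composite element of ATF4 and C/EBP factors, on either strand.
PHGDH (chr1:119711684-119711933, plus strand): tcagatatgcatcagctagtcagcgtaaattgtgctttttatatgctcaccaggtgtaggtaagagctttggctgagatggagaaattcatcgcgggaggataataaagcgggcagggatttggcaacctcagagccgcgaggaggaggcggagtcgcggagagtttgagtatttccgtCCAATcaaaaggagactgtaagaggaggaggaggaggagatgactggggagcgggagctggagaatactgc
PSAT1 (chr9:78296875-78297124, plus strand): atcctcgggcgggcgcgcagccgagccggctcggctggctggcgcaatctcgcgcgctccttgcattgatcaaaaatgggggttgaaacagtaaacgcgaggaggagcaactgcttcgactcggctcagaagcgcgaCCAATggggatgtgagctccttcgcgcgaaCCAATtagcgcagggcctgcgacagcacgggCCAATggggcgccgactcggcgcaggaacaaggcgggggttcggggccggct
MTHFD2 (chr2:74198365-74198614, plus strand): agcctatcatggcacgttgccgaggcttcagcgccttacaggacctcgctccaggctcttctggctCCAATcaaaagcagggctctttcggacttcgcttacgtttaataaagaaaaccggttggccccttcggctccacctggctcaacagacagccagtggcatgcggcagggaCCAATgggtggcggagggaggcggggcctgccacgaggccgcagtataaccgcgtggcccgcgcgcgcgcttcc
MTHFD1L (chr6:150866236-150866485, plus strand): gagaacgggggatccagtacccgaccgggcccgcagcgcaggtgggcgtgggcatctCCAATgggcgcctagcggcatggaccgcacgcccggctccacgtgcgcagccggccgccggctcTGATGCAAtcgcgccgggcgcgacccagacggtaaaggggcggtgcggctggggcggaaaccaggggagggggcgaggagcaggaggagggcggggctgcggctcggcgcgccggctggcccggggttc

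Promoter windows were found for 7 of the 9 genes by symbol, the others being PSPH and SHMT2. CCAAT stood in the windows of all 7, those of called and of uncalled genes alike, and in 32% of 35093 promoter windows of this length. PSAT1 held it 3 times, at 113, 83 and 52 bases before the start, MTHFD2, SHMT1 and GCSH 2 times each, and PHGDH 1 time, at 71 bases. TGATGNAA, present in 3.15% of windows, was found in MTHFD1L alone, 129 bases before the start. Of the 4 windows listed for its alternative starts 2 held these letters, at 129 and 90 bases. CCAAT (193 and 154 bases) and CACGTG (154 and 115) were shifted alike between those windows, which thus appear to overlap and share the same site. The E-box CACGTG occurred in MTHFD1 and MTHFD1L (6.34% of windows). The SOX core letters ACAAAG (13.7% of windows) and ACAATG (9.29%), and the cAMP response element TGACGTCA (1.65%), had 0 matches on either strand in the 7 windows. CCAAT, TGATGNAA and the others did not overlap in the windows printed. The motifs were picked after the sequences had been read, and a match or its absence describes these letters only.

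PHGDH (ENSG00000092621), the entry enzyme of serine synthesis, had 676, 717 and 947 CPM in shCon 1, 2 and 3 and 444, 371 and 322 CPM in shSOX4 1, 2 and 3. Every shSOX4 library was below every shCon library, and shCon 3 was the highest of its group as shSOX4 1 was of the other. The mean went from 780 ± 146 to 379 ± 61.5 CPM (SD over 3 libraries each), which is a log2 fold change of -1.04 (SE 0.177, 95% interval -1.42 to -0.66, adjusted p = 0.000711, edgeR). In a bulk measurement of this kind, fewer cells with the transcript and less transcript per cell cannot be told apart.

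PSAT1 (ENSG00000135069), the aminotransferase of the next step, had 996, 995 and 744 CPM in shCon 1, 2 and 3 and 451, 557 and 575 in shSOX4 1, 2 and 3. The groups were again separate, but here shCon 3 and shSOX4 1 were the lowest of their groups, the reverse of PHGDH. It fell from 912 ± 145 to 527 ± 66.8 CPM (SD, n = 3 each), by 0.79 on the log2 scale (SE 0.167, 95% interval -1.15 to -0.43, adjusted p = 0.00307, edgeR).

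PSPH (ENSG00000146733), the phosphatase that completes the route, had 112, 137 and 120 CPM in shCon 1, 2 and 3 and 65.1, 72.6 and 81.1 in shSOX4 1, 2 and 3. The highest shSOX4 library stood well under the lowest shCon library. The mean fell from 123 ± 12.8 to 72.9 ± 7.97 CPM (SD over 3 libraries each), with a log2 fold change of -0.75 (SE 0.165, 95% interval -1.11 to -0.40, adjusted p = 0.00378, edgeR). Summed over the 3 genes, the CPM of a library was nearly level within each group, 1784, 1849 and 1811 in shCon 1, 2 and 3 and 960, 1000 and 977 in shSOX4 1, 2 and 3, since PHGDH and PSAT1 deviated in opposite directions.

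SHMT2 (ENSG00000182199), the mitochondrial serine hydroxymethyltransferase, had 984, 1092 and 1366 CPM in shCon 1, 2 and 3 and 678, 553 and 531 in shSOX4 1, 2 and 3. It repeated the shape of PHGDH, with shCon 3 and shSOX4 1 at the top of separate groups. From 1147 ± 197 it fell to 587 ± 79.3 CPM (SD, n = 3 each), by 0.97 on the log2 scale (SE 0.167, 95% interval -1.32 to -0.61, adjusted p = 0.000799, edgeR).

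SHMT1 (ENSG00000176974), its cytosolic counterpart, had 92.7, 97.2 and 114 CPM in shCon 1, 2 and 3 and 90.6, 70.3 and 74.7 in shSOX4 1, 2 and 3. The groups did not overlap, yet shSOX4 1 came close to shCon 1. The log2 fold change was -0.37 (95% interval -0.73 to -0.0047, unadjusted p = 0.0475), and it did not pass after adjustment (adjusted p = 0.109, edgeR). Of 15 alternative analyses a single one called it, the fit without both shCon 3 and shSOX4 1 (-0.39, adjusted p = 0.0292, edgeR).

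**Figure D1:**
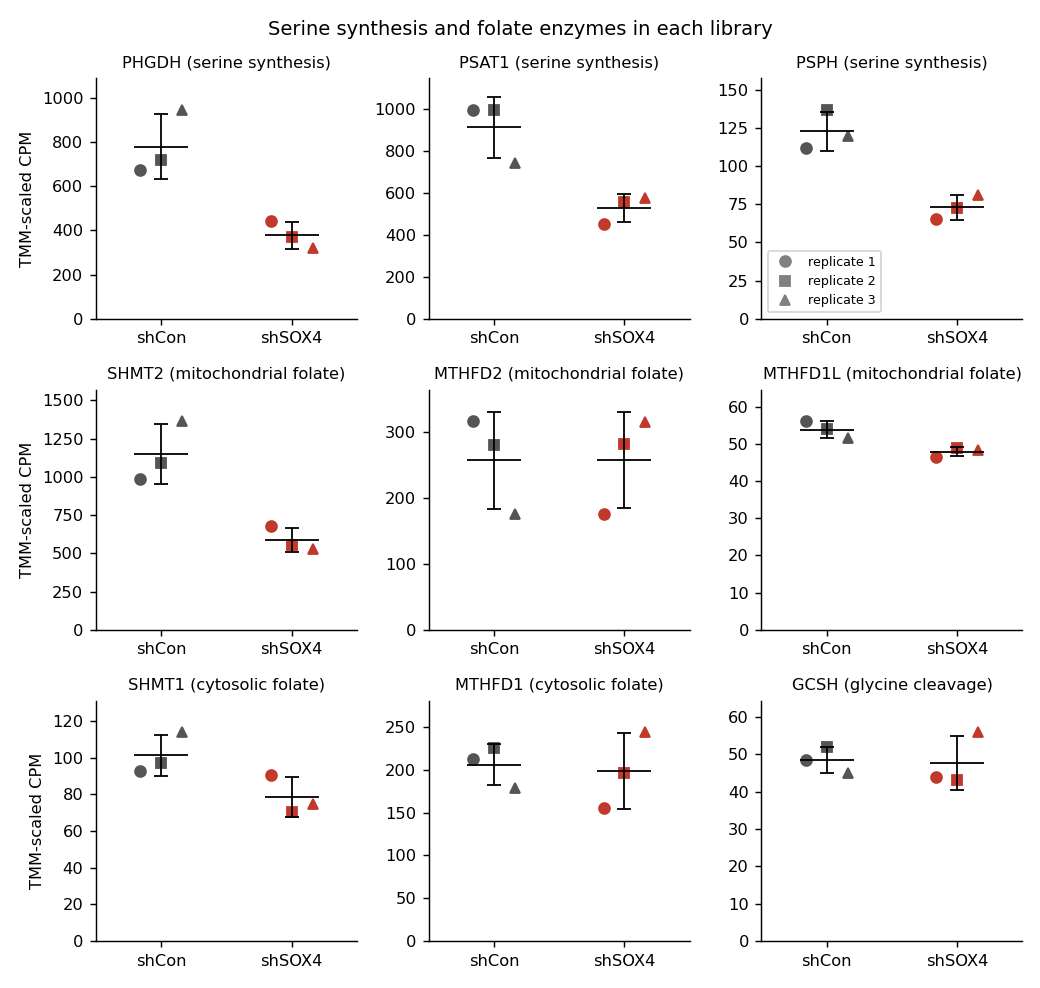
TMM-scaled CPM (linear axes from 0) of each of the 9 genes in the 3 shCon and 3 shSOX4 libraries, with bars for mean ± SD and 1 symbol per replicate number. The groups are separate for PHGDH, PSAT1, PSPH and SHMT2, and narrowly so for SHMT1 and MTHFD1L. MTHFD2 spans 175 to 317 CPM in shCon and 175 to 315 in shSOX4.

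MTHFD2 (ENSG00000065911), the mitochondrial dehydrogenase and cyclohydrolase that acts on the product of SHMT2, had 317, 280 and 175 CPM in shCon 1, 2 and 3 and 175, 282 and 315 in shSOX4 1, 2 and 3. The groups covered the same range, and the low library of each was one of those that lie apart. The mean was 257 ± 73.6 CPM in shCon and 257 ± 73.2 in shSOX4 (SD over 3 libraries each), which is a log2 fold change of -0.0014 (SE 0.237, 95% interval -0.51 to 0.50, adjusted p = 0.997, edgeR). That interval corresponds to 70.4 to 142% of control, so a moderate change in either direction is within the error. Without shCon 3 the value was -0.21 and without shSOX4 1 it was 0.22, and without both it was 0.002, none called.

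MTHFD1L (ENSG00000120254), the mitochondrial formate-releasing synthetase, varied least within groups, with 56.2, 53.9 and 51.5 CPM in shCon 1, 2 and 3 and 46.6, 48.8 and 48.4 in shSOX4 1, 2 and 3. All shSOX4 libraries lay below all shCon libraries by this scale, whereas on the per-length FPKM scale the ranges met, 14 to 17.4 against 14 to 15. Its log2 fold change of -0.17 (95% interval -0.52 to 0.18) did not pass (adjusted p = 0.449, edgeR).

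MTHFD1 (ENSG00000100714), the cytosolic enzyme that joins these activities, had 213, 225 and 179 CPM in shCon 1, 2 and 3 and 155, 196 and 244 in shSOX4 1, 2 and 3. The shSOX4 values enclosed the shCon range, and the log2 fold change was -0.05 (95% interval -0.44 to 0.34, adjusted p = 0.842, edgeR). GCSH (ENSG00000140905) had 48.4, 52.1 and 45 CPM in shCon 1, 2 and 3 and 44, 43.2 and 56 in shSOX4 1, 2 and 3. These ranges overlapped too, with a log2 fold change of -0.02 (95% interval -0.40 to 0.36, adjusted p = 0.934, edgeR).

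The calls of PHGDH, PSAT1, PSPH and SHMT2 held in all 15 alternatives, with log2 values between -1.16 and -0.88, -0.91 and -0.68, -0.83 and -0.67, and -1.07 and -0.82, respectively. MTHFD1, MTHFD1L, MTHFD2 and GCSH were called in 0 of 15. The authors' deposited table gave log2 fold changes of -0.99 for PHGDH, -0.76 for PSAT1, -0.73 for PSPH and -0.92 for SHMT2, with adjusted p-values of 2.55e-06, 0.000127, 0.000116 and 5.56e-06. That table gave -0.35 for SHMT1 (adjusted p = 0.105) and between -0.16 and 0.0024 for the other 4 genes (adjusted p of 0.439 to 0.995 in the authors' deposited table). RefSeq lists pseudogene copies for 6 of the 9 genes, 7 for MTHFD2, 6 for GCSH, 4 for PSAT1 and 1 each for PSPH, SHMT1 and MTHFD1. The sources used here do not say how reads shared with such copies were divided, and the levels of these 6 genes carry that uncertainty.

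**Figure D2:**
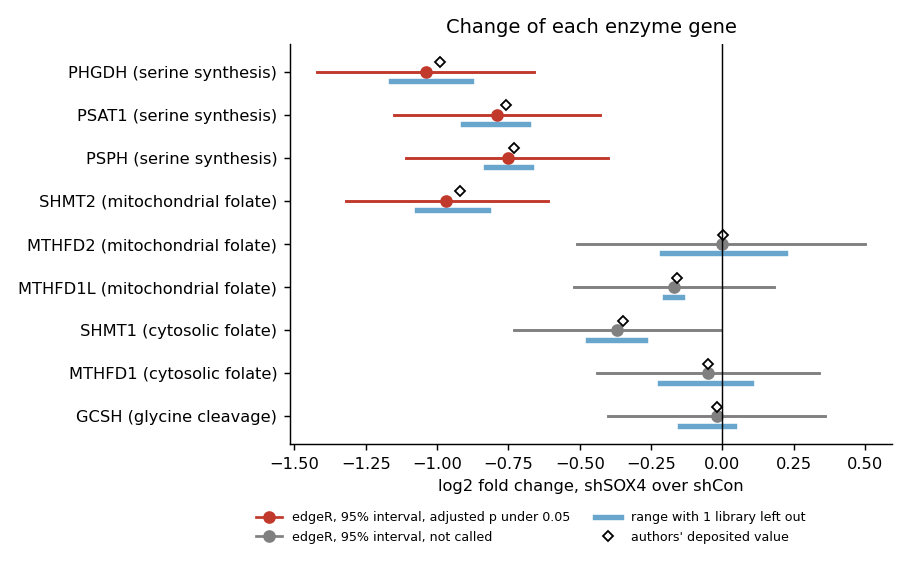
Log2 fold change of shSOX4 over shCon (x axis) for each gene (y axis), with the edgeR value and its 95% interval, the range when 1 library was left out and the authors' deposited value. The 4 called genes lie between -1.04 and -0.75, and the intervals of MTHFD2, MTHFD1L, MTHFD1 and GCSH include 0.

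Per length, the leading 3 of the 9 genes stood well above the other 6. In shCon, SHMT2 had a mean of 487 ± 39.2 FPKM (SD, n = 3), PSAT1 395 ± 85.3 and PHGDH 385 ± 41.8, and PSPH followed at 69.6 ± 8.2 FPKM. MTHFD1 (60.5 FPKM), MTHFD2 (59.8), SHMT1 (44.2), GCSH (27.4) and MTHFD1L (15.6) came after. Among neighbours in that order, the libraries overlapped for SHMT2 and PSAT1, PSAT1 and PHGDH, PSPH and MTHFD1, MTHFD1 and MTHFD2, and MTHFD2 and SHMT1. By mean, the leading 3 genes kept their order in shSOX4 at 242, 227 and 184 FPKM. Their libraries overlapped for SHMT2 and PSAT1 and for PSAT1 and PHGDH. PSAT1 exceeded SHMT2 in shSOX4 2 (249 against 235 FPKM) and in shSOX4 3 (243 against 206). PSPH, at 40.6 ± 4.92 FPKM, came below MTHFD1 (58.6 ± 12.8) and MTHFD2 (56.5 ± 17) in shSOX4. Overlap was also seen between MTHFD1 and MTHFD2, MTHFD2 and PSPH, and PSPH and SHMT1. SHMT2, PSAT1 and PHGDH thus remained above the other 6 genes in FPKM, in every library, although they fell.

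Ratios of genes within a library do not depend on library scaling. SHMT2 exceeded SHMT1 by 10.6, 11.2 and 12 times in counts in shCon 1, 2 and 3 and by 7.49, 7.86 and 7.11 times in shSOX4 1, 2 and 3, with no overlap. The mean log2 ratio was 3.49 ± 0.0889 in shCon and 2.90 ± 0.0716 in shSOX4 (SD, n = 3 each), a difference of -0.59. The exact two-sided permutation test gave p = 0.1, the smallest that 3 against 3 libraries can give (0.5 adjusted over the 5 ratios tested), so this test cannot pass 0.05 here. Without both shCon 3 and shSOX4 1 the difference was -0.55.

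The other ratios overlapped between groups. MTHFD2 to MTHFD1, the mitochondrial against the cytosolic dehydrogenase, was 0.977 to 1.49 in shCon and 1.13 to 1.44 in shSOX4 (exact permutation p = 0.7). MTHFD1L to MTHFD1 was 0.240 to 0.287 in shCon and 0.199 to 0.301 in shSOX4 (exact permutation p = 0.7). Within serine synthesis, PHGDH to PSAT1 was 0.679 to 1.27 in shCon and 0.560 to 0.984 in shSOX4 (exact permutation p = 0.5), and the difference of -0.26 on the log2 scale became 0.03 without shCon 3. PHGDH to PSPH was 5.23 to 7.90 in shCon and 3.97 to 6.81 in shSOX4 (exact permutation p = 0.4). After adjustment over the 5 ratios each of these 4 exact permutation tests had p = 0.7. SHMT2 to MTHFD2, neighbouring steps in the mitochondrion, was looked at after the values were seen and is given without a test: 3.11, 3.90 and 7.81 in shCon 1, 2 and 3 and 3.88, 1.96 and 1.69 in shSOX4 1, 2 and 3. Its highest shSOX4 library, shSOX4 1, lay among the shCon values. The mean log2 difference was -0.96, and it was -0.94 in the 4 libraries that remain when shCon 3 and shSOX4 1 are both left out, which did not overlap. Leaving out 1 library gave -1.32 (without shSOX4 1) to -0.57 (without shCon 3), so its size rests in part on single libraries.

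**Figure D3:**
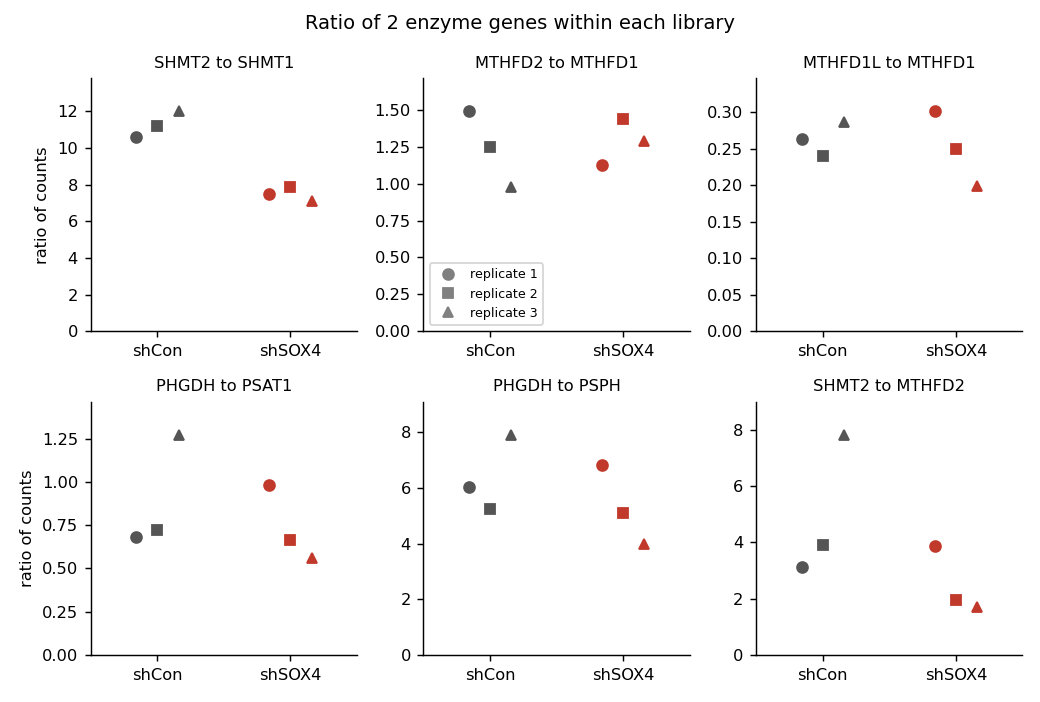
Ratio of the counts of 2 enzyme genes within each library (linear axes from 0), for the 3 shCon and 3 shSOX4 libraries. SHMT2 to SHMT1 is separate between the groups (10.6 to 12 against 7.11 to 7.86), and the other ratios overlap.

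The libraries that lie apart shifted the 9 genes in the same way in both groups. Relative to the other libraries of its own group, shCon 3 was higher in log2 CPM by 0.44 for PHGDH, 0.40 for SHMT2 and 0.26 for SHMT1, and shSOX4 1 was higher by 0.36, 0.32 and 0.32 for the same genes. MTHFD2 differed by -0.77 in each of these libraries, PSAT1 by -0.42 and -0.33, and MTHFD1 by -0.29 and -0.50. PSPH, MTHFD1L and GCSH were between -0.24 and -0.05. For MTHFD2 this spread between libraries of a group was far larger than the difference between groups. These shifts describe 2 libraries, and their cause was not tested.

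**Figure D4:**
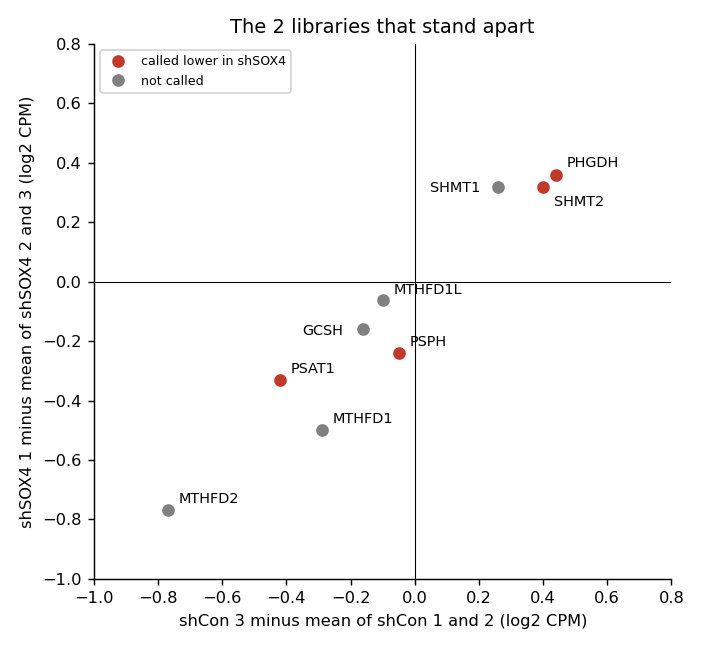
Difference in log2 CPM between the library that lies apart and the mean of the other libraries of its group, for shCon 3 (x axis) and shSOX4 1 (y axis), with 1 point per gene. PHGDH, SHMT2 and SHMT1 are above 0 on both axes, and MTHFD2 is at -0.77 on both.

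Measured by likeness over the 6 libraries, SHMT2 was the nearest of the other 8 genes to PHGDH. The root mean square difference between the centred log2 CPM profiles was 0.0643 for SHMT2, and only 10 features were nearer among 6084 protein-coding ones that averaged 20 CPM or more. The same measure was 0.319 for PSPH, 0.351 for SHMT1, 0.397 for PSAT1 and 0.769 for MTHFD2, which 4786 genes outdid. The nearest genes of all were FAM131A (0.0477), ARHGEF2 (0.0566), a guanine nucleotide exchange factor, ALS2CL (0.0588), PLEKHG4 (0.0594) and MAPK3 (0.0602), the kinase ERK1. These 5 fell by 0.99 to 1.11 on the log2 scale, MAPK3 from 203 ± 37.6 to 101 ± 19.6 CPM (SD, n = 3 each).

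Around the 9 genes, 94 further genes in 11 lists of neighbouring metabolism and its regulators had a row. Of these 20 were called lower (21.3%) and 11 higher (11.7%), against 15.8% and 17% of all features, and their median log2 fold change was -0.09. These lists too were drawn up with results of these data known. Among the genes named below, the calls of SLC1A4, SLC1A5, SLC38A2, GLDC, DLD, CBS, ASNS, GPT2, PYCR1, TRIB3, MDM2, MAT2A and AMD1 held in all 15 alternative analyses, and that of FOLR1 in all 14 that tested it.

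Of 14 genes for transport of serine and glycine 2 were called lower and 2 higher (median 0.05), where 15.8% and 17% of all features were. SLC1A4, a serine and neutral amino acid transporter, fell from 31.9 ± 5.5 to 13.5 ± 0.725 CPM (SD, n = 3 each), by 1.24 on the log2 scale (adjusted p = 0.000374, edgeR). SLC1A5, which exchanges glutamine and serine, fell from 344 ± 65.4 to 211 ± 23.3 CPM (-0.70). The sodium-coupled transporter genes SLC38A2, from 77.1 ± 10.2 to 143 ± 27.2 CPM (0.89), and SLC38A1, from 36.4 ± 5.79 to 58.2 ± 9.98 CPM (0.68), rose (SD, n = 3 each). The call of SLC38A1 was lost without shSOX4 2 (adjusted p = 0.102, edgeR). In the glycine cleavage system, GLDC, the decarboxylase that GCSH serves, fell from 22.5 ± 2.64 to 12.4 ± 1.18 CPM (-0.86, adjusted p = 0.00428, edgeR). DLD, the lipoamide dehydrogenase shared with other complexes, rose from 17.9 ± 3.07 to 35 ± 2.37 CPM (0.97, adjusted p = 0.002, edgeR), while GCSH was not called.

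Of 10 genes listed for other folate interconversion and steps near it, 2 were called lower and 0 higher (median -0.29). For this and the lists that follow, 15.8% of all features were called lower and 17% higher. In this list an unadjusted p under 0.05 was reached by 4, and DESeq2 called 3 lower and 1 higher. MTHFSD fell by 0.60, a call kept in 10 of 15 alternatives, and 0 of the list was called lower without shCon 1 or without shSOX4 2. Of 7 genes for folate transport and retention 1 rose and 1 fell (median -0.03). FOLR1, a folate receptor at the cell surface, had 1.72 ± 0.354 CPM in shCon and 25.5 ± 0.584 in shSOX4 (SD over 3 libraries each), a rise of 3.89 on the log2 scale (adjusted p = 5.7e-08, edgeR), and FPGS, which adds the glutamate tail that holds folate in the cell, fell by 0.55, a call lost in 7 of 15 alternatives. Of 6 genes of purine synthesis, a main user of one-carbon units, ADSL alone was called (0.53, lost in 4 of 15 alternatives), while GART was at -0.08 and ATIC at -0.09, neither called. Of 9 genes listed for the methionine cycle and branches from it, 3 rose and 0 fell. MAT2A, which makes S-adenosylmethionine, rose from 75.5 ± 16.7 to 171 ± 34.6 CPM, by 1.18, AMD1, which decarboxylates it, by 1.00, and MTRR, whose groups overlapped, by 0.75, a call lost in 8 of 15 alternatives.

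In transsulfuration and glutathione synthesis 3 of 5 fell and 0 rose (median -0.53). Beside this and the next lists, 15.8% of all features were called lower and 17% higher. CBS, which joins serine to homocysteine, fell from 200 ± 38.9 to 99.4 ± 31 CPM (SD, n = 3 each), by 1.01 on the log2 scale (adjusted p = 0.00368, edgeR). CTH, the next enzyme, fell by 0.75 and GSS, glutathione synthetase, by 0.53, and both were lost without shCon 2, shSOX4 2 or shSOX4 3, where 1 of the 5 genes was called. In asparagine, proline and aspartate synthesis 7 of 11 fell and 0 rose (median -0.54), with 4 called without shCon 2 or without shSOX4 2. ASNS, asparagine synthetase, fell from 592 ± 70.5 to 342 ± 15.8 CPM (-0.79), GPT2 by 0.98 and PYCR1 by 0.85. Of 10 genes of serine breakdown and use 0 were called in either direction by edgeR, 1 had an unadjusted p under 0.05, and DESeq2 called 0. GRHPR (-0.19) and SARS, the cytosolic seryl-tRNA synthetase (-0.34, adjusted p = 0.0873, edgeR), were the most abundant of them. SARS was called in the fit without both shCon 3 and shSOX4 1 (adjusted p = 0.0396, edgeR), and 2 of the 10 genes were called higher without shSOX4 1. Upstream, among 5 glycolytic genes that supply or draw off 3-phosphoglycerate, PGK1 rose by 0.50 and ENO1 fell by 0.49, calls lost in 3 and 4 of 15 alternatives.

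Of 15 regulators known to act on serine synthesis 3 fell and 2 rose (median -0.15), with 1 and 1 called without shSOX4 2 or without shSOX4 3. Among all features 15.8% were called lower and 17% higher. ATF4 had 953 ± 61.1 CPM in shCon and 676 ± 47.2 in shSOX4 (SD over 3 libraries each), a log2 decrease called by the test at -0.50 (adjusted p = 0.0173, edgeR). Its call was lost in 5 of 15 alternatives, among them the fits without shCon 2, shSOX4 2 or shSOX4 3 (adjusted p of 0.0596 to 0.0926, edgeR). TRIB3, a pseudokinase induced by ATF4, fell by 0.81 and ATF3 by 0.58, the latter call lost in 6 of 15 alternatives. MDM2, the p53 ubiquitin ligase, rose by 0.86, and EIF2AK3, the sensor kinase PERK, at a mean of 2.21 CPM in shCon and 4.11 in shSOX4, was the other gene called higher (0.89, adjusted p = 0.0483, edgeR). EIF2AK3 did not pass in 9 of the 13 alternatives that tested it.

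**Figure D5:**
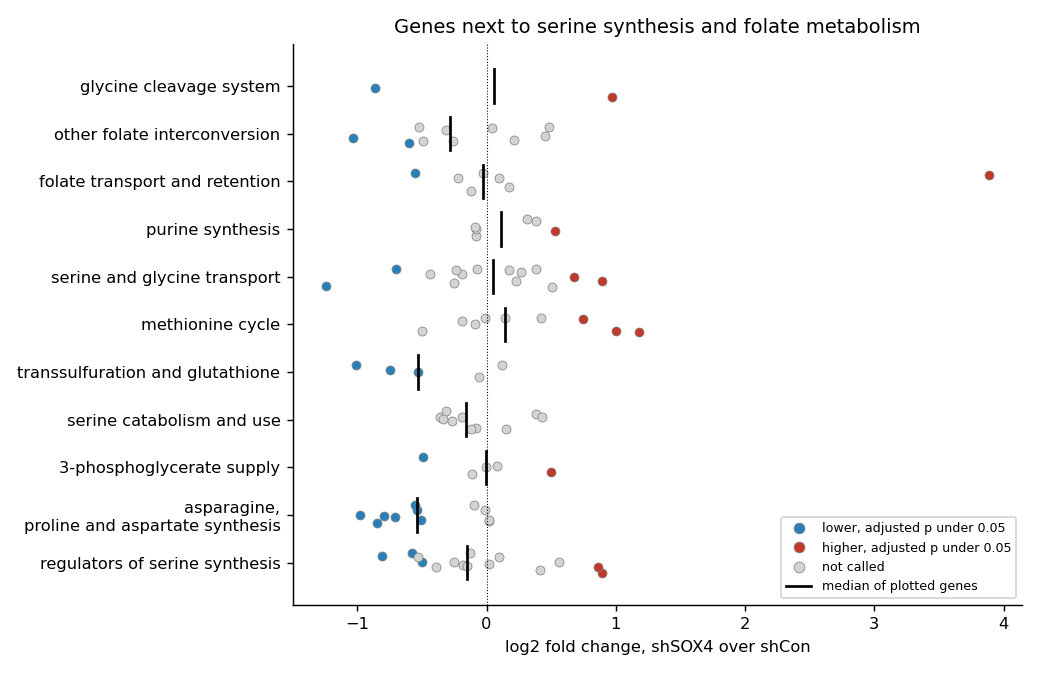
Log2 fold change of shSOX4 over shCon (x axis) of the 94 neighbouring genes by list (y axis), with 1 point per gene, colours for calls at an adjusted p under 0.05 (edgeR) and a bar at the median of the plotted genes. The list of asparagine, proline and aspartate synthesis holds 7 called falls and 0 called rises among its 11 genes. Of all features 15.8% were called lower and 17% higher. FOLR1 lies far to the right at 3.89.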

How the data were processed

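RNA was sequenced in 3 shCon and 3 shSOX4 libraries. The authors deposited 1 table with counts and FPKM per gene and library, and their own log2 fold changes with p-values and adjusted p-values, per the file headers. Build hg19 and, with no roles, Bowtie2, HISAT2, STAR, deepTools 2.07 and MACS2 2.1.1 come from the submitters' processing notes. The sources used here name no counting program, strand setting or annotation, so reads of overlapping or antisense genes may not be separable. Every one of the 13527 features had at least 1 CPM in 3 or more libraries, and edgeR's expression filter, applied before the fit, removed no feature. Deposited counts and FPKM of the 9 genes departed from proportionality by up to 10.6% (PHGDH).

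From the deposited counts, edgeR 4.0.16 (R 4.3.3; TMM factors, quasi-likelihood test, no covariate) was fitted to all features, with Benjamini-Hochberg adjustment and a threshold of 0.05. Printed CPM are TMM-scaled. Ratios of counts were compared by exact two-sided permutation tests (scipy 1.17.1). The 15 alternatives were other scalings, a filter at 5 CPM, DESeq2 1.42.0, limma 3.58.1 (voom, and log2(FPKM + 1) where the mean FPKM was at least 1), a replicate block, each library left out, both libraries that lie apart left out, and loci named newGene left out. Dropping the filter repeated the main values and is not counted. The counts by list across alternatives and the ratio of SHMT2 to MTHFD2 were added after seeing the data. The scripts were tested on simulated data. Symbols were matched by identifier for 12386 features. By rule the text names the 9 genes, SOX4, the 5 features nearest to PHGDH, and from each list up to 4 called genes with the smallest adjusted p or, where fewer than 2 were called, up to 2 uncalled ones with the highest CPM, and EIF2AK3 as a further called regulator. The members and lists were chosen with earlier results of these data known. Some genes that this rule or the lists would name are not reported here.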

Additional observations from a re-analysis of the deposited data

How the results depend on the processing

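The call or lack of a call of 8 of the 9 enzyme genes, all but SHMT1, was the same in all 15 alternatives that differed from the analysis reported. For 37 called genes followed, 494 values kept call and direction, 57 lost the call and 0 changed sign. For 9 uncalled genes 133 values stayed uncalled and 2 gained a call, and 16 changed sign, those of MTHFD1, MTHFD2, GCSH and GART. Applying no filter gave identical values, since the filter removed no feature. All features called numbered 4431, and 2564 when at least 5 CPM was required in every library, where fewer features were tested. Leaving out 1 library gave 2509 (without shSOX4 2) to 4966. The MTHFD2 to MTHFD1 ratio difference (0.07) ranged from -0.09 (without shCon 3) to 0.21 when 1 library was left out, and was -0.01 without shSOX4 2, that of MTHFD1L to MTHFD1 (-0.10) ranged from -0.24 to 0.06 (without shSOX4 3), and that of PHGDH to PSAT1 (-0.26) from -0.48 to 0.03 (without shCon 3). That of SHMT2 to MTHFD2 (-0.96) ranged from -1.32 to -0.57. The cause was not tested. With 3 libraries a group, the exact permutation tests of ratios cannot go below p = 0.1.

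Deviations of same-numbered libraries correlated at -0.29, 0.159 and -0.293 across features. The highest value between groups was 0.495, of shCon 3 with shSOX4 1. Deviations were taken from each group's own mean and so depend on one another. They cannot tell whether same-numbered libraries were prepared together. With the replicate number as a block 3374 features were called, and PHGDH (-1.04), PSAT1 (-0.78), PSPH (-0.75) and SHMT2 (-0.96) stayed called. Sign-flip tests of the paired ratios gave exact p of 0.25 to 1, where 0.25 is the smallest possible.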
